A study of Mus musculus with 19 samples.

Results

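Interferon-stimulated genes were followed in the livers, spleens and hearts of mice on an atherogenic diet. The list held 37 gene symbols, and every probe whose annotated symbol was on it was taken. Of these genes, 31 had an annotated probe, through 43 of the 24048 probes of the array, and 8 of them had more than 1 probe. Mx1, Mx2, Xaf1, Trim25, Parp14 and Nlrc5 were matched to no annotated probe and were not analysed here. All mice were male BALB/c, 12 weeks of age, and had eaten the atherogenic diet (AD) for 6 weeks. The AD + OPP group drank oil palm phenolics (OPP), a water-soluble extract of the oil palm, at 1500 ppm gallic acid equivalent ad libitum, and the AD + DW group drank distilled water. RNA was hybridized to 19 Illumina MouseRef-8 arrays. Distilled water was represented by 4 liver, 3 spleen and 3 heart arrays, and OPP by 3 arrays per organ. The RNA had been selected by integrity from larger groups of mice, the authors had left out arrays that clustered as outliers, and arrays of mice on a normal diet were not analysed here. Several mice shared a cage, the cages are not given in the labels, and the facility was not pathogen-free, so an effect of the cage cannot be told apart from that of OPP.

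Interferons are cytokines that bind receptors on the cell surface and act through Janus kinases. Type I and type III interferons act on genes through interferon-stimulated response elements (ISRE), whereas interferon gamma acts through gamma-activated sites (GAS). The induced genes encode regulators of the response itself, sensors and enzymes that act on foreign nucleic acids, GTPases that act on intracellular parasites and bacteria, and proteins that stop viruses at membranes. In the spleen and liver, macrophages, dendritic cells and lymphocytes carry much of this response.

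Promoter stretches are shown here for some of the members that hold letters matching an ISRE. They do not stand for the members with the smallest p in the spleen, since Irf8, Ifitm1, Ifi47 and Isg20 held no ISRE match. Sequences are those of RefSeq for GRCm38.p6, the C57BL/6J reference rather than the BALB/c strain of the mice, and the 250 bases before the transcript start were searched on both strands. The ISRE was searched as GAAANNGAAA and the GAS as TTCNNNGAA. The ISRE letters were found for 12 of the 29 members in the promoter table (41.4%) and for 936 of all 27025 genes (3.46%). The GAS letters were found for 9 of the 29 members (31%) and for 2197 of all genes (8.13%). The members with the ISRE letters were Bst2, Gbp2, Gbp3, Ifit1, Ifit3, Ifitm2, Igtp, Irgm1, Isg15, Rsad2, Stat2 and Tgtp1. Eif2ak2, Ifit2, Irf1, Irf8, Isg20 and Samhd1 held the GAS letters only, and in Bst2 alone the ISRE and GAS matches shared bases. Ifitm1 and Ifitm3 held neither motif in this window. A match describes the letters only. Each sequence below runs 5′ to 3′ in the direction of the gene, with the ISRE matches on either strand in capitals.
Irgm1, chr11:48871421-48871470, minus strand: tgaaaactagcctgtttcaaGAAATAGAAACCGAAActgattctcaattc
Igtp, chr11:58199502-58199551, plus strand: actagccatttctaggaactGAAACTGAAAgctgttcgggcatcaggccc
Bst2, chr8:71537567-71537622, minus strand: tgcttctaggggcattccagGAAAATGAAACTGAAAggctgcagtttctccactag
Rsad2, chr12:26456543-26456592, minus strand: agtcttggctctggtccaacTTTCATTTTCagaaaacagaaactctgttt
Ifitm2, chr7:140955978-140956027, minus strand: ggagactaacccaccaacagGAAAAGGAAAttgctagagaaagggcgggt

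Testing in an organ required that every array of at least 1 group had a detection p below 0.01 for the probe. By this rule 21 members were tested in at least 1 organ and 13 in all 3 organs, with 21 in the spleen and 16 each in the liver and heart. The 10 members tested in no organ were Gbp2, Ifih1, Ifit1, Ifit3, Iigp1, Oasl1, Oasl2, Rtp4, Stat2 and Tgtp1. Of these, 8 were detected on no array. Gbp2 was detected on 4 arrays and Ifit3 on 1. These genes include classical targets of type I interferon, such as Ifit1 and Oasl2, and nothing can be said of them here beyond their lack of detection. The brightest tested probe was counted for each gene. Samhd1 was the only member with more than 1 tested probe in an organ, in the spleen, and both probes had a lower mean with OPP. Ifitm1 had 3 probes, Irf1 had 4, and Irf9 and Irgm1 had 2 each, but only 1 probe of each gene was tested. The Ifitm1 probes left out were detected on no more than 1 array, so its result rests on 1 probe.

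The arrays detected between 5863 and 7576 probes each. Spleen AD + DW replicate 3 stood apart, with the fewest detected probes and 40.0% of its signal in its 100 brightest probes, against 27.3% to 30.9% on the other spleen arrays. The labelled organs were checked against markers. All 5 measured hepatocyte markers were tested in the liver, 4 of 5 cardiomyocyte markers were tested in the heart and 6 of 9 B cell markers in the spleen, where the B cell genes Cr2, Ebf1 and Pax5 were detected on no array. Organs are mixtures of cells, so fewer cells of a type and less RNA per cell cannot be told apart in any result below.

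The main comparison asked how OPP changed these genes under the atherogenic diet. No member passed an adjusted p of 0.05 in any organ by limma, with Benjamini-Hochberg adjustment over all tested probes, nor did any other probe (0% of 6664 spleen probes, 0% of 6007 liver probes and 0% of 6580 heart probes). Among the members the smallest adjusted p was 0.0786 in the spleen, 0.592 in the liver and 0.999 in the heart. Of all tested probes, the mean was lower with OPP for 3878 of 6664 in the spleen, 3044 of 6007 in the liver and 3184 of 6580 in the heart. In the spleen the mean was lower with OPP for 17 of 21 members and higher for 4, which were Ifitm1, Ifitm2, Ifitm3 and Eif2ak2. The median log2 fold change of the members there was -0.56, beside -0.07 over all tested probes. In the liver 9 of 16 members were lower and 7 higher, with a median of -0.09 beside -0.01 over all probes. In the heart 9 of 16 were lower and 7 higher, with a median of -0.13 beside 0.01. Rsad2, Ifi35 and Irf8 in the liver and Ifi35 in the spleen were tested only through AD + DW, where they were higher. With detection in both groups, 6 of 12 liver members were lower (median -0.01), as were 15 of 19 spleen members and 6 of 12 heart members.

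At an unadjusted p under 0.05, 9 of 21 spleen members were lower with OPP, where 8.42% of all probes were, and 2 were higher, where 8.09% of all probes were. The groups did not overlap, with OPP lower, for 10 of the 21 spleen members, against 12.3% of all probes, and with OPP higher for 2, against 11.1% of all probes. In the liver 1 of 16 members was lower at the same unadjusted p (4.29% of all probes) and 0 were higher (3.95% of all probes). Non-overlapping groups were found there for 1 member with OPP higher (4.01% of all probes) and for 0 with OPP lower (4.36% of all probes). In the heart 1 of 16 members was lower at this p (1.46% of all probes) and 0 were higher (2.17% of all probes), and the groups did not overlap for 2 members with OPP lower (3.54% of all probes) and 0 with OPP higher (4.16% of all probes). In the spleen the lower members made up a larger share of the list than of all probes. The heart counts rested on 1 and 2 of 16 members, and Isg20 was in both. It was detected on 3 of 3 AD + DW and 0 of 3 AD + OPP heart arrays. Isg20 was thus tested there only through the group where it was high, and no conclusion is drawn from the heart counts. The 1 liver member lower at this p was Rsad2, detected on 4 of 4 AD + DW and 1 of 3 AD + OPP arrays.

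**Figure D1:**
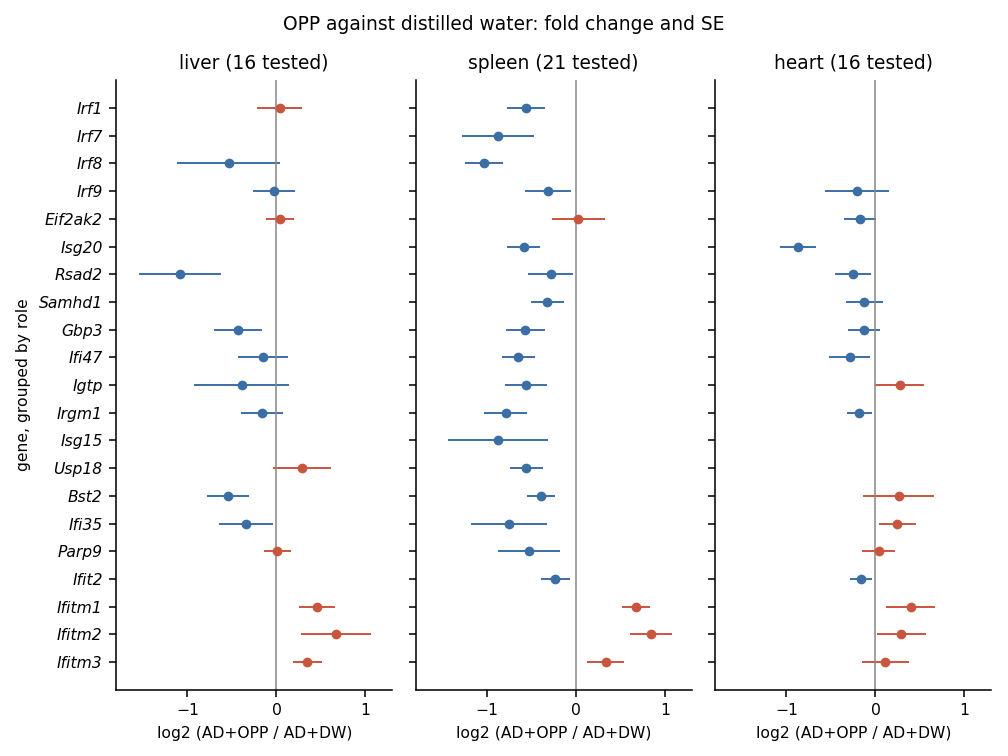
Log2 fold change of AD + OPP against AD + DW (x axis) for the members tested in at least 1 organ (y axis, grouped by role), with bars for the limma standard error; red points are above 0, blue points below 0, and a gap means the gene was not tested in that organ. In the spleen 17 of 21 points lie below 0, while Ifitm1, Ifitm2 and Ifitm3 lie above 0 in all 3 organs.

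Transcription factors of the response had the member with the smallest p in the spleen. All 4 tested factors had a lower mean with OPP, with a median log2 fold change of -0.72. Irf8, a factor needed for the development of B cells, dendritic cells and macrophages, is at chr8:120736358-120756694. Its normalized signal was 2061.7, 1630.8 and 1895.3 on the AD + DW arrays and 711.1, 1140.3 and 916.7 on the AD + OPP arrays. Every AD + OPP array was below every AD + DW array. The log2 fold change was -1.03 ± 0.22 (SE, limma, adjusted p = 0.0786).

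Irf1, which carries responses to interferon gamma, had signals of 412.2, 281.7 and 278.4 with distilled water and 251.1, 208.9 and 192.9 with OPP. The groups did not overlap, AD + DW replicate 1 was well above the rest, and the log2 fold change was -0.56 ± 0.22 (SE, limma, adjusted p = 0.261). Irf7, the main inducer of further type I interferon, was less regular, since AD + OPP replicate 1 lay within the AD + DW range, and its log2 fold change was -0.88 ± 0.40 (adjusted p = 0.337). Irf9 gave -0.32 ± 0.26 (adjusted p = 0.588), with overlapping groups.

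Of the interferon-inducible GTPases, 4 were tested in the spleen. Ifi47, Irgm1, Igtp and Gbp3 each had a lower mean with OPP and an unadjusted p under 0.05, with log2 fold changes between -0.79 and -0.56, and none passed after adjustment. Ifi47, Irgm1 and Igtp are immunity-related GTPases that act on the vacuoles of intracellular pathogens, and all lie on chromosome 11. Ifi47 had signals of 818.7, 778.0 and 792.4 with distilled water and 563.6, 569.5 and 409.3 with OPP. Its AD + DW arrays were close together and all above the AD + OPP arrays (log2 fold change -0.65 ± 0.18, SE, limma, adjusted p = 0.14). Irgm1, which regulates the other GTPases of its family, had signals of 374.7, 300.7 and 358.8 with distilled water and 223.0, 244.2 and 143.7 with OPP. The groups were again separate, and AD + OPP replicate 3 was the lowest (log2 fold change -0.79 ± 0.24, adjusted p = 0.162). Gbp3, a guanylate-binding protein of the same defence, had signals of 318.7, 259.8 and 376.0 with distilled water and 179.1, 261.8 and 203.6 with OPP. Here AD + OPP replicate 2 reached just above AD + DW replicate 2, so the groups overlapped (log2 fold change -0.57 ± 0.22, adjusted p = 0.261). Igtp gave -0.56 ± 0.23 (adjusted p = 0.299), with separate groups.

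Among sensors and RNA enzymes in the spleen, Isg20, an exonuclease that degrades single-stranded RNA, had the smallest p. Its signals were 683.7, 695.7 and 704.2 with distilled water and 421.8, 578.4 and 405.1 with OPP. The AD + DW arrays differed little from each other and lay above all AD + OPP arrays (log2 fold change -0.59 ± 0.19, SE, limma, adjusted p = 0.178). Samhd1, which breaks down deoxynucleotides, gave -0.32 ± 0.19, and Rsad2 (viperin), which makes a nucleotide that ends viral RNA chains, gave -0.29 ± 0.25. Eif2ak2, the kinase PKR that senses double-stranded RNA, was level at 0.03 ± 0.30 and was the only member outside the IFITM family with a higher mean.

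The ISG15 system had 2 tested members in the spleen. Usp18, the protease that removes ISG15 from proteins and restrains the type I interferon receptor, had signals of 160.7, 144.9 and 125.4 with distilled water and 103.7, 108.4 and 81.7 with OPP. These are dim values, and the probe was detected on 2 of 3 AD + DW arrays. The groups did not overlap (log2 fold change -0.56 ± 0.19, SE, limma, adjusted p = 0.205). Isg15, the ubiquitin-like modifier itself, had signals of 650.4, 626.7 and 375.8 with distilled water and 392.5, 536.2 and 117.3 with OPP. The groups overlapped and AD + OPP replicate 3 was far below the rest, so the log2 fold change of -0.88 had an SE of 0.56 (adjusted p = 0.491). Of the other effectors, Bst2 (tetherin), which holds budding virus particles on the cell surface, gave -0.39 ± 0.16 with separate groups (adjusted p = 0.286), while Ifi35 at -0.75 ± 0.43 and Parp9 at -0.53 ± 0.35 had overlapping groups.

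**Figure D2:**
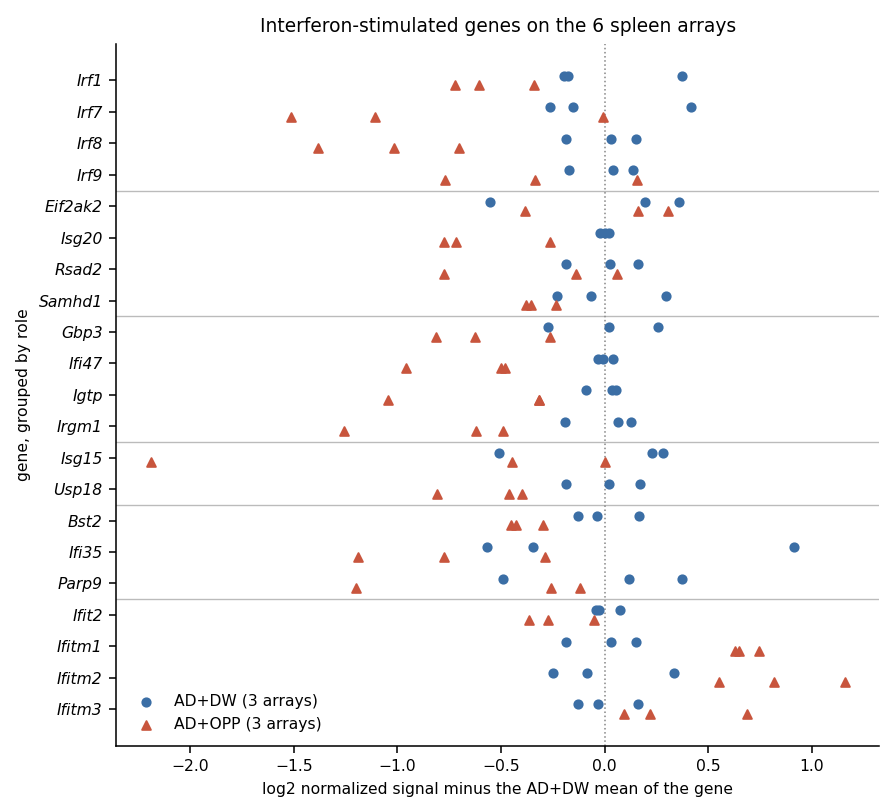
Each tested member (y axis, grouped by role) on the 6 spleen arrays, as log2 normalized signal minus the AD + DW mean of that gene (x axis); blue circles are AD + DW arrays and red triangles AD + OPP arrays. Most triangles lie left of the circles, with the Isg15 value of AD + OPP replicate 3 farthest to the left, and those of Ifitm1 and Ifitm2 lie to the right of every circle.

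The IFITM genes had higher means with OPP. They encode small membrane proteins that hinder the fusion of enveloped viruses, and Ifitm2 (chr7:140954837-140959686), Ifitm1 (chr7:140967429-140969827) and Ifitm3 (chr7:141009590-141010744) lie side by side. Their sequences are alike, so signal shared between their probes could not be told apart. In the spleen Ifitm1 had signals of 2227.1, 2588.2 and 2814.7 with distilled water and 3914.3, 4237.2 and 3969.9 with OPP. Every AD + OPP array was above every AD + DW array (log2 fold change 0.67 ± 0.16, SE, limma, adjusted p = 0.0993). Ifitm2 had signals of 790.4, 885.6 and 1186.7 with distilled water and 1378.8, 1655.0 and 2096.2 with OPP. These groups were separate too (log2 fold change 0.84 ± 0.23, adjusted p = 0.136). Ifitm3 had signals of 2480.7, 2828.9 and 2316.7 with distilled water and 4071.2, 2945.7 and 2704.5 with OPP, and the groups overlapped because AD + OPP replicate 3 was below AD + DW replicate 2 (log2 fold change 0.33 ± 0.21, adjusted p = 0.478). Ifit2, on chromosome 19 and of the separate IFIT family that binds foreign RNA, gave -0.23 ± 0.16 (adjusted p = 0.524).

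In the liver the IFITM genes again had higher means with OPP, as did Usp18, Eif2ak2, Irf1 and Parp9. Ifitm1 had signals of 8843.8, 7956.9, 10161.4 and 11233.2 with distilled water and 14576.5, 15471.9 and 9742.5 with OPP. AD + OPP replicates 1 and 2 were above all other arrays, and replicate 3 lay within the AD + DW range (log2 fold change 0.46 ± 0.20, SE, limma, adjusted p = 0.592). Ifitm2 showed the same order, with 3380.0, 2934.6, 3530.7 and 5580.5 against 7704.6, 8977.6 and 3025.9. AD + DW replicate 4 was the highest of its group, and the log2 fold change was 0.67 ± 0.39 (adjusted p = 0.649). Leaving out AD + OPP replicate 3 gave 1.15, and leaving out replicate 2 of that group gave 0.37. Ifitm3 had signals of 8882.1, 8337.9, 7865.8 and 8276.3 with distilled water and 13386.6, 9926.2 and 8913.0 with OPP. It was the only liver member whose groups did not overlap, although by a narrow margin at replicate 3 (log2 fold change 0.34 ± 0.16, adjusted p = 0.598).

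In the heart the IFITM values spread widely within each group. Ifitm1 had signals of 1918.2, 2384.7 and 1374.4 with distilled water and 3516.1, 2033.0 and 1997.6 with OPP, and Ifitm2 had 716.8, 1123.0 and 663.4 against 1415.0, 888.1 and 780.0. AD + OPP replicate 1 was the highest array and AD + DW replicate 2 the next for Ifitm1, Ifitm2 and Ifitm3 alike, so all groups overlapped. The log2 fold changes were 0.39 ± 0.28 for Ifitm1, 0.29 ± 0.28 for Ifitm2 and 0.11 ± 0.27 for Ifitm3 (SE, limma, adjusted p = 0.999 for each). Without AD + OPP replicate 1, and likewise without AD + DW replicate 3, only 2 of the 3 kept a higher mean with OPP in the heart.

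**Figure D3:**
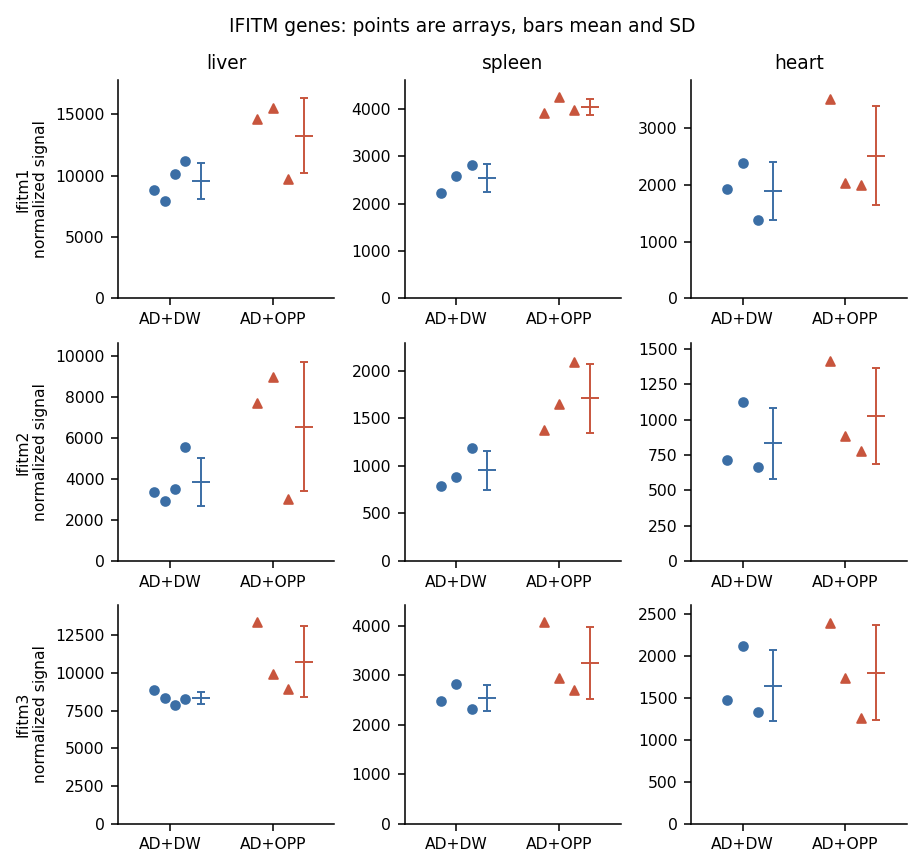
Normalized signal (y axis, linear, from 0) of Ifitm1, Ifitm2 and Ifitm3 (rows) in the liver, spleen and heart (columns); each point is an array, and the bars beside the points give the mean and SD of the group. The groups are separate for Ifitm1 and Ifitm2 in the spleen and for Ifitm3 in the liver, and overlap in the other panels.

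Genes of neutrophil granules and of the acute phase were high on some of the arrays with high IFITM signals, with exceptions. In the liver the mean log2 signal of the 3 tested of 13 neutrophil granule markers was 14.10 on AD + DW replicate 4, 14.06 on AD + OPP replicate 1 and 14.02 on AD + OPP replicate 2. It was 7.49 on AD + OPP replicate 3 and between 7.64 and 11.83 on the other AD + DW arrays. All 14 acute phase genes were tested in the liver, with means of 11.77 to 13.96 on the AD + DW arrays and 12.29 to 14.24 on the AD + OPP arrays, and the same 3 arrays were the highest. Of these, AD + DW replicate 4 was not high for Ifitm3. In the heart 5 of 13 neutrophil granule markers were tested, with 11.01 on AD + OPP replicate 1, 10.20 on AD + DW replicate 2 and 5.32 to 9.01 on the others, while the precursor markers Ctsg, Elane, Mpo and Prtn3 were detected on no heart array. The 2 tested of 14 acute phase genes in the heart had means of 10.72 on AD + OPP replicate 1 and 8.50 on AD + DW replicate 2. The next was AD + DW replicate 3 at 7.87, which had the lowest mean IFITM signal, and the other 3 arrays were lower. In the spleen all 13 were tested, and their mean was 10.41 to 12.01 with distilled water and 12.80 to 13.03 with OPP. The 5 tested of 14 acute phase genes in the spleen had means of 6.52 to 7.30 with distilled water and 8.68 to 9.61 with OPP. The part of these cells and genes in the IFITM values was not tested.

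Markers of B cells, T cells, dendritic cells, macrophages and endothelium had lower means with OPP in the spleen, like most members. All 6 tested of 9 measured B cell markers were lower with OPP (median log2 fold change -1.19), and array means were 8.34 to 8.89 against 6.89 to 7.64. All 6 tested of 9 T cell markers were lower too, with a median of -1.04, as were all 4 tested of 9 dendritic cell markers, with a median of -1.40, and all 7 tested of 11 macrophage markers, with a median of -0.59. The 4 tested of 7 endothelial markers were also lower, with a median of -0.54. Of the 2 tested of 9 natural killer cell markers, 1 was higher and 1 lower, with a median of -0.07. Several of these cell types express Irf8 strongly. Their part in the spleen result was not tested. In the heart all 7 tested of 11 macrophage markers were higher with OPP, with a median of 0.51. In the liver 2 of the 9 tested macrophage markers were higher and 7 lower, with a median of -0.22.

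On single arrays, the 18 spleen members outside the IFITM family had mean log2 deviations from the organ mean of 0.40, 0.22 and 0.20 with distilled water and of -0.17, -0.05 and -0.60 with OPP. The groups were separate, and AD + OPP replicate 3 held the lowest value of 13 of the 18 members, while AD + DW replicate 1 held the highest value of 10. The IFITM mean was -0.46, -0.27 and -0.19 with distilled water and 0.31, 0.28 and 0.33 with OPP. Without AD + OPP replicate 3 the median log2 fold change of all spleen members was -0.32, and without AD + DW replicate 1 it was -0.37. In the liver the 13 other members had deviations of 0.12, -0.29, 0.49 and 0.11 with distilled water and 0.09, -0.37 and -0.16 with OPP. These overlapped, and AD + DW replicate 3 held the highest value of 10 of the 13. In the heart the 13 other members lay between -0.05 and 0.18 with distilled water and between -0.29 and 0.14 with OPP, also overlapping.

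**Figure D4:**
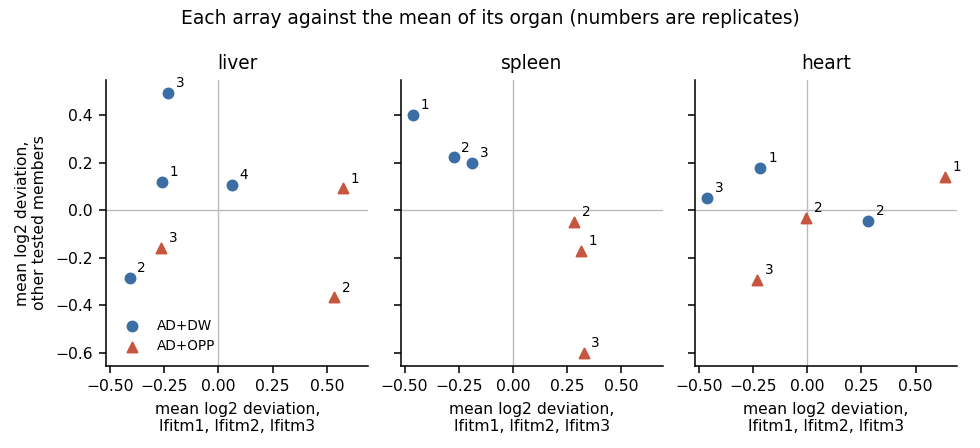
Each array by the mean log2 deviation of Ifitm1, Ifitm2 and Ifitm3 (x axis) and of the other tested members (y axis) from the mean over the arrays of its organ; blue circles are AD + DW, red triangles AD + OPP, and the numbers are replicates. In the spleen the groups are separate on both axes, with AD + DW at the upper left and AD + OPP at the lower right, and in the liver and heart they overlap.

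Rsad2 had the smallest p of the liver members. Its signals were 150.3, 189.1, 353.1 and 318.7 with distilled water and 232.4, 67.3 and 90.1 with OPP. Both the lowest values were OPP arrays, where it was detected on 1 of 3, but AD + OPP replicate 1 lay within the AD + DW range (log2 fold change -1.08 ± 0.46, SE, limma, adjusted p = 0.592). Leaving out this array gave -1.61, leaving out AD + OPP replicate 2 gave -0.72, and median scaling gave -0.38. Rsad2 passed the filter only through its AD + DW arrays, where it was higher, and was not tested when detection in both groups was required. Bst2 in the liver had signals of 5314.8, 5593.7, 6444.5 and 4600.6 with distilled water and 2810.8, 3367.0 and 5504.6 with OPP. AD + OPP replicates 1 and 2 were below all others, and AD + DW replicate 4 was the lowest of its group (log2 fold change -0.54 ± 0.24, adjusted p = 0.592). Leaving out AD + OPP replicate 1 gave -0.34, and leaving out replicate 3 of that group gave -0.83. Gbp3 had liver signals of 240.2, 167.2, 287.0 and 212.6 against 243.7, 121.3 and 152.4, which overlapped (log2 fold change -0.43 ± 0.27, adjusted p = 0.671). Ifi35, a cytoplasmic protein induced by interferons, had dim signals of 150.0, 82.7, 208.3 and 147.6 against 99.4, 97.8 and 138.3. Its OPP values lay inside the AD + DW range (log2 fold change -0.34 ± 0.30, adjusted p = 0.735). Irf8 in the liver had signals of 106.8, 85.4, 115.1 and 200.5 against 143.2, 141.7 and 28.1, and the sign of its log2 fold change of -0.54 ± 0.58 rested on AD + OPP replicate 3, without which it was 0.24. The remaining liver members, Usp18, Igtp, Irgm1, Ifi47, Eif2ak2, Irf1, Irf9 and Parp9, had log2 fold changes between -0.39 and 0.29, all with overlapping groups.

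Isg20 had the smallest p of the heart members. Its signals were 64.1, 73.0 and 93.2 with distilled water and 40.8, 51.1 and 34.3 with OPP. The groups did not overlap, and the probe was detected on all AD + DW arrays and on 0 of 3 AD + OPP arrays, so the signal was at least 1.16-fold higher with distilled water (fitted log2 fold change -0.87 ± 0.20, SE, limma, adjusted p = 0.999). This bound sets each OPP array at its lowest detected signal. Isg20 passed the filter in the heart only through its AD + DW arrays, where it was higher, so its direction there is not read as shared with the spleen. It was not tested in the liver. Ifit2 had heart signals of 225.3, 224.1 and 231.1 against 184.0, 217.1 and 208.7. These groups were separate as well, but the log2 fold change was only -0.16 ± 0.12 (adjusted p = 0.999). Irgm1 had heart signals of 164.5, 194.2 and 151.0 against 156.6, 153.4 and 137.5, with a log2 fold change of -0.18 ± 0.14. Rsad2 had 324.9, 513.7 and 425.8 against 395.8, 292.8 and 360.7 (-0.26 ± 0.20), and Ifi47 had 123.1, 101.0 and 123.7 against 115.3, 111.9 and 65.1 (-0.29 ± 0.23). The groups overlapped for each of these GTPases and for Rsad2. Ifi35 had 87.8, 97.3 and 67.3 against 88.1, 86.0 and 126.5 (0.25 ± 0.21), also overlapping. The other heart members, Igtp, Eif2ak2, Gbp3, Bst2, Samhd1, Irf9 and Parp9, lay between -0.21 and 0.27 on the log2 scale.

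Whether the OPP effect on a member differed between organs was tested as an interaction, with all 19 arrays in 1 limma fit. Of the 16 members tested in both spleen and liver, 0 passed an adjusted p of 0.05 (0.711% of all probes) and 0 had an unadjusted p under 0.05 (12.8% of all probes). The same held for the 13 members of heart and liver (0% and 3.96% of all probes) and for the 16 of spleen and heart (0.0196% and 9.09% of all probes). The largest spleen to liver contrast by p was Irgm1, at -0.79 in the spleen and -0.16 in the liver, a difference of -0.63 ± 0.31 (SE, limma, adjusted p = 0.407). The lower spleen members were therefore not shown to differ from those of the other organs.

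The rest of the pathway was read from lists of 112 genes, of which 94 had a probe. None of the 14 interferon genes with a probe was tested in any organ, and no gene of any list passed the adjusted threshold. A list of 53 other interferon-inducible genes, 41 with a probe, had 22 tested genes in the spleen, of which 19 were lower and 3 higher. Among all spleen probes 3878 of 6664 were lower. The median log2 fold change was -0.47, beside -0.07 over all probes. At an unadjusted p under 0.05, 9 were lower (8.42% of all probes) and 1 higher (8.09% of all probes). The genes named from each list are those with the smallest p in the organ, not the largest fold change. Cxcl9, a chemokine induced by interferon gamma, had a mean signal of 296.3 ± 55.4 with distilled water and 94.6 ± 57.8 with OPP (SD, n = 3 each), a log2 fold change of -1.79 ± 0.40 (SE, limma, adjusted p = 0.0858). Ifi30, a thiol reductase of antigen processing, had means of 1003 ± 150.4 and 540.1 ± 106 (log2 fold change -0.90 ± 0.22, adjusted p = 0.0997). In the liver 12 of 14 tested genes of this list were lower, with a median of -0.35 and 0 at the unadjusted threshold, and the smallest p were those of Psme2 at -0.33 and Uba7 at -0.43, while Ifi27l2a had a log2 fold change of -0.77 and Ly6e of -0.70. In the heart 8 of 14 were higher, with a median of 0.10, and the smallest p were those of Tor3a at 0.40 and Ifi30 at 0.29.

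Upstream of these genes, the spleen values ran in both directions. Of 5 tested interferon receptor genes 3 were higher. The smallest p was that of Ifnlr1, a subunit of the receptor for type III interferon. Its mean signals were 42.5 with distilled water and 165.8 with OPP (log2 fold change 2.19 ± 0.52, SE, limma, adjusted p = 0.0973). The distilled water mean was dim. Gbp2, at 33.6 to 44.6 on the AD + OPP spleen arrays, was detected on 0 of 3 of them. Detection of Ifnlr1 by group is not given here, so the size of its fold change is uncertain. Ifngr2, of the interferon gamma receptor, gave 0.27 ± 0.18. Among 5 tested nucleic acid sensing genes, the adaptor Myd88 gave 1.10 ± 0.21 (adjusted p = 0.077) and the transcription factor Irf5 gave -0.54 ± 0.18 (adjusted p = 0.204). Of 5 tested JAK-STAT genes, Stat4 gave -0.50 ± 0.20 and Jak1 -0.52 ± 0.22. Among 9 tested negative regulators, the exonuclease Trex1 gave -0.51 ± 0.16 and the signalling inhibitor Socs3 gave 0.70 ± 0.26. In the liver the genes of these lists with the smallest p were Ifngr2 (-0.43), Il10rb (-0.48), Stat3 (0.50), Jak1 (-0.19), Irf5 (-0.36), Irf3 (0.22), Adar (-0.46) and Ptpn6 (0.58), with limma adjusted p between 0.59 and 0.779. In the heart those genes were Il10rb (-0.15), Ifngr2 (-0.04), Stat3 (0.18), Jak1 (-0.07), Mavs (0.03), Irf3 (-0.03), Socs3 (0.59) and Irf2 (0.18), each with an adjusted p of 0.999.

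Levels by organ were compared on the AD + DW arrays after quantile normalization over all arrays, because the deposited normalization was made within each organ. Between spleen and liver, 13 of 20 members were higher in the spleen (65%, against 40.5% of all probes) and 4 were lower (38.1% of all probes), at an adjusted p of 0.05 by limma. Between spleen and heart, 16 of 20 were higher in the spleen (80%, against 34.8% of all probes) and 1, Ifit2, was lower (40% of all probes). Between heart and liver, 4 of 18 were higher in the heart (22.2%, against 41.2% of all probes) and 9 were lower (30.3% of all probes). Some members called higher had passed the filter only through the organ where they were higher. These were Ifit2, Irf7, Isg15, Isg20 and Samhd1 for spleen against liver, and Irf1, Irf7, Irf8 and Isg15 for spleen against heart. For heart against liver they were Ifit2, Isg20 and Samhd1. The counts are limited by this. The median log2 difference of the members was 0.77 for spleen minus liver, 1.31 for spleen minus heart and -0.77 for heart minus liver, beside 0.05, -0.12 and 0.23 over all probes. Of 23 members detected on at least 1 of these arrays, the mean was highest in the spleen for 14, in the liver for 8 and in the heart for 1.

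Irf8 stood farthest above the other organs in the spleen. Its quantile-normalized signal was 3027, 2230 and 2259 on the spleen arrays, but 83.0 to 176.2 on liver and 54.7 to 95.8 on heart arrays. The spleen arrays were above all others, with log2 differences of 4.46 ± 0.28 from the liver (SE, limma, adjusted p = 2.32e-07) and 5.04 ± 0.30 from the heart (adjusted p = 2.59e-07). The liver and heart levels of Irf8 were not shown to differ (heart minus liver -0.59 ± 0.28, adjusted p = 0.0808). Rsad2 was 7229, 8441 and 5093 in the spleen, 378.1 to 577.9 in the heart and 144.2 to 314.4 in the liver. Its order was spleen, heart, liver, and each step passed (spleen minus heart 3.85 ± 0.32, adjusted p = 2.61e-06, and heart minus liver 1.12 ± 0.30, adjusted p = 0.00636). Isg15 was 752.7, 726.4 and 359.9 in the spleen, and it was detected on 1 of 4 liver arrays and on no heart array, so the spleen was at least 7.73-fold above the heart. Isg20 was detected on no liver array and was at least 9.38-fold higher in the spleen than in the liver.

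The liver was highest for Bst2 and the IFITM genes. Bst2 was 3141 to 4619 on liver, 914.5 to 1291 on spleen and 261.6 to 769.1 on heart arrays, with no overlap between organs. The log2 difference was -1.87 ± 0.32 for spleen minus liver (SE, limma, adjusted p = 3.54e-04) and -3.08 ± 0.32 for heart minus liver (adjusted p = 1.1e-05). Ifitm1 followed the same order, with 5438 to 7975 on liver, 3345 to 3840 on spleen and 1560 to 2945 on heart arrays, and so did Ifitm3. For Ifitm2 the spleen and heart were not shown to differ (0.22 ± 0.27, adjusted p = 0.469). The heart was below the spleen for Irf8, as above, for Igtp (spleen minus heart 3.25 ± 0.43, adjusted p = 7.35e-05) and for Ifi47 (2.84 ± 0.25, adjusted p = 4.55e-06). Ifit2 was the exception, with 232.9 to 258.7 on heart, 121.5 to 180.4 on spleen and 52.6 to 93.9 on liver arrays. The log2 difference was 1.75 ± 0.22 for heart minus liver (adjusted p = 5.03e-05) and -0.70 ± 0.24 for spleen minus heart (adjusted p = 0.0222), and the latter call was lost when spleen replicate 3, heart replicate 1 or heart replicate 3 was left out.

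**Figure D5:**
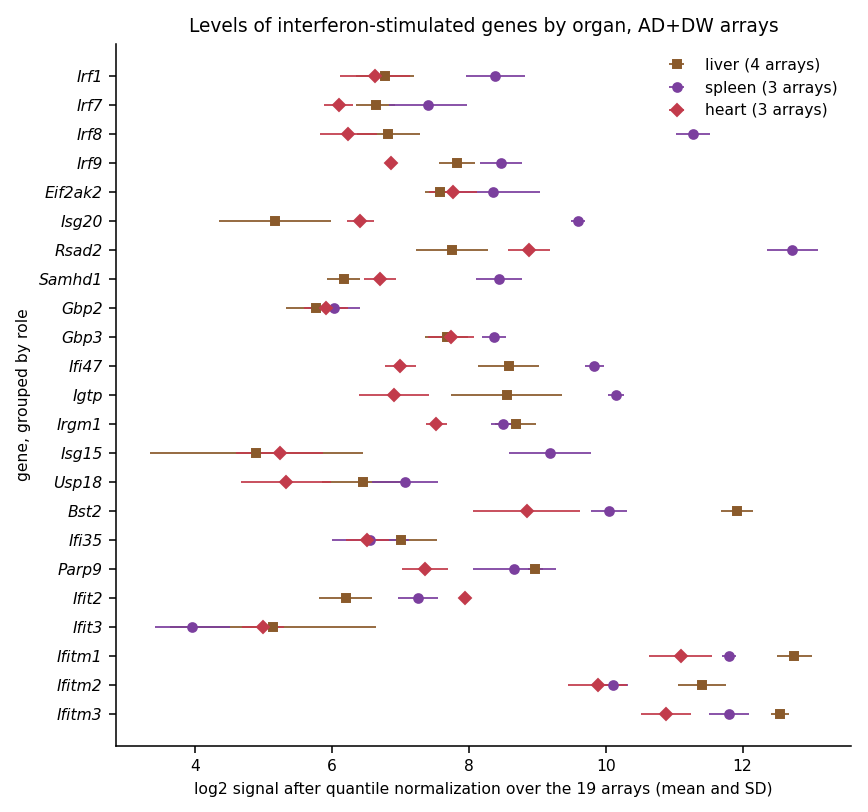
Mean and SD of the log2 signal after quantile normalization (x axis) of the 23 members detected on at least 1 AD + DW array (y axis, grouped by role), for 4 liver, 3 spleen and 3 heart arrays. Within the row of each gene, the spleen point lies to the right of the other organs for Irf8, Rsad2, Isg15 and Isg20, and the liver point does for Bst2 and the IFITM genes.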

How the data were processed

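Signal intensities on a linear scale, each with a detection p-value, were deposited before and after normalization. The authors normalized with BeadStudio 1.5.1.3 (per the submitters' processing notes) by its rank invariant option. The deposited detection p-value was used without conversion, and a probe was tested where it was under 0.01 on every array of either group. This limit was taken as a Detection Level above 0.99, the threshold of the authors. The normalized intensity of each array was a slope times the unnormalized value plus an intercept. Intensities were floored at 10 and log2 transformed, so fold changes of probes with values under 10 are understated. No tested member had such a value, the dimmest being Irf8 at 28.1 on liver AD + OPP replicate 3. Groups were compared with limma 3.58.1 in R 4.3.3, two-sided, with Benjamini-Hochberg adjustment over all tested probes and a threshold of 0.05, and statmod 1.5.0 was loaded for it. The test was checked on simulated data. For arrays, their number limits the precision, and p-values measure the spread between these arrays, since the sources used here do not tie them to cages.

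The members and all lists were chosen with earlier results of these data known. Probes were named through the platform annotation, in which 19398 probes carried 1 gene symbol, 0 several and 4650 none. Per-array values were given for the 8 members with the smallest p in each organ. For each pathway list the 2 genes with the smallest p were named by group means or fold changes, and for each organ the 3 members farthest from the mean of the other organs were named. Members added to these, Irf1, Irf7, Isg15, Ifitm3 in the spleen and heart among them, were named after their values had been seen. Where a group had no array with a detected signal, the fold was given as a bound, and its arrays were set to the dimmest detected signal on each, or to the measured signal if that was brighter. Same-numbered AD + DW arrays of spleen and heart deviated together (correlations of 0.151, 0.16 and 0.204), and no source states what the numbers share. In the other comparisons the numbers did not pair the arrays. Alternatives changed the background correction, normalization, filter, floor, variance model, arrays in the fit, test, pairing and replicates. The authors' own error model was not repeated.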

Additional observations from a re-analysis of the deposited data

How the results depend on the processing

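In the spleen, the number of members passing the adjusted threshold changed from 0 to 2 with quantile normalization of the unnormalized signals (Ifitm1 and Irf8), with median scaling of them (Ifitm1 and Ifitm2) and with a trended, robust variance (Ifitm1 and Irf8), and the smallest of these adjusted p-values was 0.0228. These settings kept the 21 members and 6664 probes tested in the main comparison, and the number of all probes called follows below. Over all alternatives the adjusted p in the spleen was 0.0253 to 0.433 for Irf8, 0.0228 to 0.352 for Ifitm1 and 0.0273 to 0.558 for Ifitm2. The number of spleen probes called changed from 0 to 192 with quantile normalization, 194 with median scaling, 5 without the detection filter, 52 with detection in both groups, 101 with a floor of 50, 222 with the trended variance and 254 with all arrays in the fit, and was 0 to 168 when 1 replicate was left out (168 without AD + DW replicate 2). The median log2 fold change of the spleen members was -0.43 with neqc, -0.28 with quantile normalization and -0.36 with median scaling, and -0.64 to -0.32 when 1 replicate was left out. Both rescalings start from signals that keep their background, which shrinks the fold changes of dim probes. At least 17 of 21 members stayed lower where 21 were tested, and the IFITM genes stayed higher in the spleen and liver under every alternative. Not every alternative could change a direction. The trended variance, the fit with all arrays and the t-test kept the fold changes of the main comparison, as did the replicate block in the spleen. At an unadjusted p under 0.05 the spleen count was 5 to 11. The share of all probes under each alternative is not given here, so no conclusion is drawn from this range.

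In the heart 3 probes were called without the filter. The heart median was -0.057 with quantile normalization, -0.048 with median scaling, -0.006 without the filter and -0.045 with detection in both groups, and -0.169 to 0.066 when 1 replicate was left out. In the liver 0 probes were called under any alternative, and Irf8 ranged from -0.933 to 0.242 when 1 replicate was left out (0.242 without AD + OPP replicate 3). With probes detected in both organs, 8 members were higher in the spleen than in the liver and 1 was higher in the heart than in the liver. The shares of all probes under this filter are not given here, so these counts have no background beside them. Ifit2, lower in the spleen than in the heart, was called with neither all arrays in the fit (0 members) nor without 3 of the replicates (0 to 1 members). The causes were not tested.

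With the replicate number as a block (replicate block), 0 members were called for OPP in any organ, and the medians were -0.142 (liver), -0.556 (spleen) and -0.128 (heart). The block was balanced in the spleen and heart, so their medians could not differ from those of the main comparison. For the levels, where spleen and heart numbers paired, the block gave 16 higher and 1 lower, as without it. The two-tailed t-test of the methods, run on the same values, had 8 spleen, 1 heart and 0 liver members under 0.05, and 0 after Benjamini-Hochberg adjustment. The share of all probes under 0.05 by this t-test is not given here, so no conclusion is drawn from these counts. The slide could not be used as a block, since no source used here gives it.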
